A study of Mus musculus with 24 samples.

Results

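The 9 genes examined here encode protein kinases and F-box proteins that act on the clock proteins PER and CRY. They were selected by the gene name in the per-library tables, 9 of the 54733 genes listed, and all 9 passed the filter of a mean of at least 1 FPKM that 11244 genes passed. FPKM counts sequenced fragments relative to transcript length and to the mapped fragments of the library. The mRNA levels were measured by sequencing poly(A) RNA from the livers of male C57BL/6 mice, wild type (WT) or delta-RRE (ΔRRE). In the ΔRRE mice a pair of RREs, elements bound by REV-ERB and ROR receptors, had been removed with CRISPR-Cas9 from the 5' region of *Bmal1* on both alleles, in every cell of the body. The study used 1 of its mutant lines unless it stated otherwise, and the livers were taken in constant darkness at CT2, CT6, CT10, CT14, CT18 and CT22 (projected circadian time), with 2 libraries per genotype and time point. The ages of these mice are not given in the labels. The study gives a range of ages for the mice of its tissue RNA, without an age for each library. Nor do the labels state that both libraries of a group came from different mice, so the p-values measure the spread between these libraries, which may be partly technical.

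PER and CRY repress their own transcription, and the time they take to build up, enter the nucleus and be degraded sets the length of the daily cycle. Casein kinases 1 delta and epsilon (*Csnk1d*, *Csnk1e*) bind PER and phosphorylate it, and phosphorylated PER is recognised by β-TrCP, an F-box protein with a pair of forms encoded by *Btrc* and *Fbxw11*, which hands it to an SCF ubiquitin ligase for degradation. Casein kinase 1 alpha (*Csnk1a1*), the catalytic subunits of casein kinase 2 (*Csnk2a1*, *Csnk2a2*) and glycogen synthase kinase 3 (*Gsk3a*, *Gsk3b*) phosphorylate PER, CRY, BMAL1 or REV-ERBα as well as many proteins outside the clock. These enzymes act at the protein level, and RNA-seq measures their mRNA only.

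The targeted gene, listed as *Arntl*, went with the labels. It measured 0.195 and 0.0919 FPKM at CT10 and 12.6 and 13.2 FPKM at CT2 in WT, and between 2.096 and 4.21 FPKM in all 12 ΔRRE libraries. The 24 libraries summed to between 554170 and 624746 FPKM, the median correlation of a library with the others was 0.942 to 0.964, and no pair shared more than 0.0711% of its values. The FPKM tables hold no read numbers, so the counting error behind a single value is unknown. The hepatocyte markers (*Alb*, *Ttr*, *Apoa1*, *Cps1*, *Cyp2e1* and *Tat*) summed to between 31644 and 50224 FPKM per library, and the markers of Kupffer cells to between 11.8 and 59.6, of endothelial cells to between 16.8 and 35.4 and of stellate cells to between 25.8 and 67.7 FPKM. Cholangiocyte markers summed to between 2.31 and 8.79 and leukocyte markers to between 0.384 and 2.65 FPKM, and the T cell marker *Cd3e* was at 0 in 6 libraries. None of the markers tested differed in level between the genotypes at an adjusted p of 0.05, as none of the 11244 genes did. Des, Krt7, Epcam and the leukocyte markers were below the filter and not tested. A 24 h wave passed in 4 of 6 hepatocyte, 0 of 4 Kupffer cell, 2 of 4 endothelial, 2 of 3 stellate cell and 2 of 2 cholangiocyte markers tested. In this fit to both genotypes 30.6% of all genes passed. In bulk liver, fewer cells of a type and less RNA per cell cannot be told apart, and the part of cell composition in the results below was not tested.

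The mean mRNA levels of the 9 genes ran from 3.03 to 23.6 FPKM, where the median over all genes tested was 6.74 FPKM. *Csnk1a1* was the highest, with 23.6 ± 2.88 FPKM, followed by *Csnk2a1* with 22.2 ± 2.73, *Gsk3a* with 21.1 ± 2.47 and *Csnk1d* with 18.0 ± 1.54 FPKM (SD, n = 24 libraries). *Fbxw11* measured 8.07 ± 1.14, *Csnk2a2* 5.14 ± 0.936, *Btrc* 4.07 ± 0.654, *Gsk3b* 3.90 ± 1.29 and *Csnk1e* 3.03 ± 0.711 FPKM (SD, n = 24 libraries). The step between *Csnk1d* and *Fbxw11* was the widest between neighbours in this order, 2.25-fold, and *Csnk1d* was the higher of them in 24 of 24 libraries. Of the 8 neighbouring pairs, *Csnk2a1* and *Gsk3a* did not differ beyond their spread (1.05-fold, paired permutation test of the log2 ratios, two-sided, p = 0.109, adjusted over the 8 pairs 0.125), and neither did *Btrc* and *Gsk3b* (1.10-fold, permutation p = 0.318, adjusted 0.318). For the other 6 pairs the adjusted p lay between 8e-05 and 0.0284. The order was taken from the same 24 libraries, so these p-values describe the spread of the ratios between libraries. They do not cover an error of FPKM for a gene that all libraries share. The unadjusted p of the steps from *Csnk1d* to *Fbxw11* and from *Fbxw11* to *Csnk2a2* was 2e-05, the smallest that the resamples can give. The rank of all 9 genes was the same in the 12 WT and in the 12 ΔRRE libraries.

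**Figure D1:**
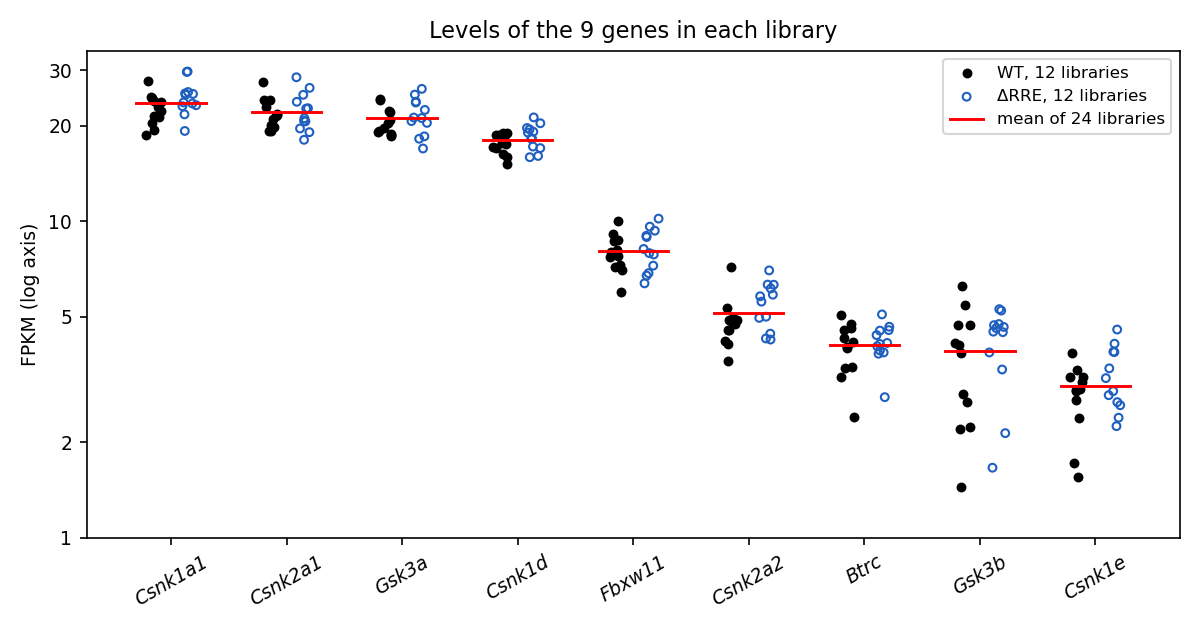
FPKM of each gene in each library on a log axis, in the order of their means, with filled points for the 12 WT and open points for the 12 ΔRRE libraries and a red line at the mean of all 24. Csnk1a1, Csnk2a1, Gsk3a and Csnk1d lie above the other 5 genes in every library, and Gsk3b spreads most, from 1.45 to 6.23 FPKM.

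In each pair of paralogues 1 mRNA was the more abundant. *Csnk1d* exceeded *Csnk1e* 6.11-fold (geometric mean, 4.33 to 11.01 over the libraries), and *Csnk2a1* exceeded *Csnk2a2* 4.35-fold (2.96 to 5.40). *Gsk3a* exceeded *Gsk3b* 5.75-fold (3.04 to 15.7), and of the β-TrCP genes *Fbxw11* exceeded *Btrc* 1.99-fold (1.35 to 2.92). The order held in 24 of 24 libraries in each of the 4 pairs. The log2 ratio of *Csnk2a1* to *Csnk2a2* was 2.21 ± 0.17 in WT and 2.04 ± 0.23 in ΔRRE (SD, n = 12 each), and this difference of −0.17 was not larger than the spread between libraries (exact permutation test, two-sided, p = 0.0583, adjusted over the 4 ratios 0.233). The other 3 ratios differed between the genotypes by −0.13 (*Csnk1d* to *Csnk1e*; −0.23 without WT CT14 replicate 1 and −0.021 without WT CT14 replicate 2), 0.13 (*Gsk3b* to *Gsk3a*) and −0.028 (*Fbxw11* to *Btrc*) on the log2 scale, with exact permutation p from 0.381 to 0.798. The coding sequences of the paralogues were 72.0% to 77.7% identical over the aligned bases, and their longest identical stretch was 23 bases, in *Csnk1d* and *Csnk1e*. Reads of the pseudogene *Csnk2a1-ps1* reached at most 0.043 FPKM, and *Csnk2a1-ps* was listed at 0.

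In the GENCODE M21 annotation of GRCm38, *Csnk1d* lies at chr11:120961749-120991330 and *Csnk1e* at chr15:79417856-79455566, both on the minus strand. *Csnk2a1* lies at chr2:152226839-152281852 on the plus strand and *Csnk2a2* at chr8:95446096-95490039 on the minus strand. *Gsk3a* is at chr7:25228258-25237851 (minus), *Gsk3b* at chr16:38089001-38246084 (plus), *Btrc* at chr19:45363734-45530013 (plus) and *Fbxw11* at chr11:32642724-32746816 (plus). FPKM is given per gene, over all its exons. The antisense gene *Gm28192* overlaps *Csnk1d* and had a mean of 1.46 FPKM, and *9130221H12Rik* overlaps *Gsk3a* with a mean of 1.70 FPKM. The other overlapping genes measured had means of at most 0.472 FPKM. The library kit keeps the strand, but the strand setting of the quantification is not given in the sources used here, so a small share of the FPKM of *Csnk1d* and *Gsk3a* may be uncertain.

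The DNA just before the transcription start was read for the 6 genes that had entries in the RefSeq promoter table (GRCm38.p6), *Csnk1e* with 4 starts, 9 windows of 300 bases in all (250 before to 50 after the start). *Csnk1d*, *Csnk1a1* and *Btrc* had no entry. None of the 9 windows held the E-box CACGTG, through which CLOCK and BMAL1 drive *Per* and *Cry* transcription, on either strand, against 7.15% of all 32851 windows. The D-box TTATGTAA (0.938% of all windows), the RORE core AGGTCA (16.3%) and the CRE TGACGTCA (1.79%) were also absent from the 9 windows. The GC box GGGCGG was in 7 windows of 4 genes (*Csnk1e*, *Csnk2a1*, *Csnk2a2* and *Gsk3a*), against 35.7% of all windows, and CCAAT in those of *Gsk3a* and *Gsk3b*, against 37.4%. *Csnk1e* with its 4 starts gave 4 of these 7 windows. Of 8 reference clock genes with entries, 7 held the GC box and 6 held CCAAT, so neither was particular to the members. The GC content of the windows was 54.3% to 80.7% (median of all windows 52.7%) and they held 14 to 54 CpG (median of all windows 7). A missing match says only that these letters are not in these windows. The windows of *Csnk1e*, *Csnk2a2* and *Fbxw11* do not cover the start of the gene in the GENCODE annotation given above. Which starts are used in liver was not tested. The 250 bases before the start are shown, 5' to 3' on the strand of the gene, for *Csnk2a1* (chr2:152226590-152226839), 1 of the genes whose 24 h wave passed the test below, and for the paralogues *Gsk3a* (chr7:25237852-25238101) and *Gsk3b* (chr16:38088751-38089000), whose ratio varied most between libraries, with GC boxes of either strand in capitals. Below them stand 30 bases around the E-box (capitals) before the starts of *Per1* (chr11:69098771-69098800) and *Cry1* (chr10:85185097-85185126), for comparison. These were the only 2 of the 8 reference clock genes whose windows held CACGTG.
Csnk2a1: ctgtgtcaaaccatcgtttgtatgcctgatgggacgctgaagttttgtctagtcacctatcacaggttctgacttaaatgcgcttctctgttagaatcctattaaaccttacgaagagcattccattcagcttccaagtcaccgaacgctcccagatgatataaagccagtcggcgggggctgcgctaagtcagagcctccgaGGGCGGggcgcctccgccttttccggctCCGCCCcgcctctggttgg
Gsk3a: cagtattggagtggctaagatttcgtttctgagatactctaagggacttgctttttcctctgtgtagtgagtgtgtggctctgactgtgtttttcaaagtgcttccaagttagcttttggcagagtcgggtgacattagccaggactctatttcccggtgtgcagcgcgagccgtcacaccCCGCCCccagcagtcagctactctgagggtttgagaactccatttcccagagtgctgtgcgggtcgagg
Gsk3b: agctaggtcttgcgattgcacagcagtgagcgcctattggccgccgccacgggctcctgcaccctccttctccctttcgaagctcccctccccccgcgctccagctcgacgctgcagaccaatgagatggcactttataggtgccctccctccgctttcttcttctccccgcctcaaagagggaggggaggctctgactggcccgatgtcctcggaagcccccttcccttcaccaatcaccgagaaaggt
Per1: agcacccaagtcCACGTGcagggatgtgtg
Cry1: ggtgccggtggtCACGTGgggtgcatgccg
*Csnk2a1* holds 2 GC boxes close to its start, *Gsk3a* holds 1 and *Gsk3b* none in these 250 bases.

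Whether the mRNAs changed over the day was asked with a cosine and a sine of 24 h fitted to log2(FPKM + 0.1), and folds are on this scale, which understates changes of low values. In WT alone none of the 9 genes passed an adjusted p of 0.05 in limma's moderated F-test (10.3% of all genes did) and none had an unadjusted p under 0.05 (27.6% of all genes). In ΔRRE alone none passed either (4.57% of all genes), and *Csnk2a1* alone had an unadjusted p under 0.05 (22.6% of all genes). With both genotypes fitted together, 1 wave for all 24 libraries, 2 of 9 genes passed, *Csnk1a1* and *Csnk2a1*, where 30.6% of all genes did, and 4 of 9 had an unadjusted p under 0.05, where 42.1% of all genes did. These shares are near or below those of all genes tested. The amplitude of the joint wave had a median of 0.13 log2 units over the 9 genes and of 0.17 over all genes, and the SD between the replicates of a group had a median of 0.21 over the 9 genes and 0.25 over all genes.

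*Csnk1a1* encodes the casein kinase 1 form best known for priming β-catenin for degradation, and it also phosphorylates PER. Its WT libraries (replicates 1 and 2) measured 24.0 and 23.7 FPKM at CT2, 27.8 and 22.2 at CT6, 24.8 and 20.4 at CT10, 21.3 and 24.4 at CT14, 19.4 and 18.8 at CT18 and 22.9 and 21.5 at CT22. The ΔRRE libraries measured 25.1 and 25.3 FPKM at CT2, 25.4 and 29.7 at CT6, 23.1 and 29.6 at CT10, 23.7 and 21.8 at CT14, 23.6 and 19.3 at CT18 and 25.6 and 23.3 at CT22. In both genotypes the mean was highest at CT6 and lowest at CT18, and both WT libraries of CT18 lay below all the other WT libraries. These values were not rescaled, and WT CT18 replicate 1 had the lowest scale factor by median ratios of all libraries, 0.907. The joint wave had an amplitude of 0.15 ± 0.040 log2 units (SE), which is 1.23-fold from trough to peak, with the peak at CT5.66 (adjusted p = 0.0178 in limma's test). The peaks fitted to each genotype alone were at CT5.64 in WT and CT5.68 in ΔRRE.

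*Csnk2a1* encodes a catalytic subunit of casein kinase 2, which phosphorylates PER2 and BMAL1. Its WT libraries measured 21.7 and 21.0 FPKM at CT2, 24.1 and 22.9 at CT6, 24.2 and 21.8 at CT10, 19.3 and 27.5 at CT14, 19.3 and 19.9 at CT18 and 20.2 and 21.5 at CT22. The ΔRRE libraries measured 28.5 and 21.2 FPKM at CT2, 25.1 and 23.8 at CT6, 22.7 and 26.4 at CT10, 20.7 and 19.6 at CT14, 19.1 and 18.1 at CT18 and 20.8 and 22.8 at CT22. The lowest mean was again at CT18 in both genotypes, and the replicates parted most at CT14 in WT and at CT2 in ΔRRE. The joint wave had an amplitude of 0.15 ± 0.043 log2 units (SE), 1.23-fold from trough to peak, with the peak at CT6.52 (adjusted p = 0.0289 in limma's test). In ΔRRE alone the amplitude was 0.21 (unadjusted p = 0.0163, adjusted p = 0.132 in limma's test).

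Both calls were close to the threshold and were lost under several alternatives. With each library rescaled by its median ratio, the amplitude was 0.13 log2 units for both, with an adjusted p in limma's test of 0.0525 for *Csnk1a1* and 0.0751 for *Csnk2a1*. Without CT18 it was 0.11 for both (0.272 and 0.316), and without CT6 it was 0.15 and 0.17 (0.0923 and 0.101). *Csnk2a1* also lost its call without CT10 (adjusted p = 0.0902), without ΔRRE CT18 replicate 1 (0.0553) and without ΔRRE CT18 replicate 2 (0.0678), with an amplitude of 0.14 in each.

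The 2 calls stood against far larger waves in the genes of the proteins these enzymes act on. In the same joint fit the amplitude was 1.90 ± 0.13 log2 units (SE) for *Per2*, with a peak at CT15.6, 1.84 ± 0.17 for *Per1* at CT13.5 and 1.49 ± 0.12 for *Cry1* at CT20.0. *Cry2* had a smaller wave of 0.32 ± 0.061, with its peak at CT12.5. The largest joint amplitude among the 9 genes was that of *Gsk3b*, 0.27 ± 0.15 log2 units, below that of *Cry2*, and it did not pass (adjusted p = 0.336 in limma's test).

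**Figure D2:**
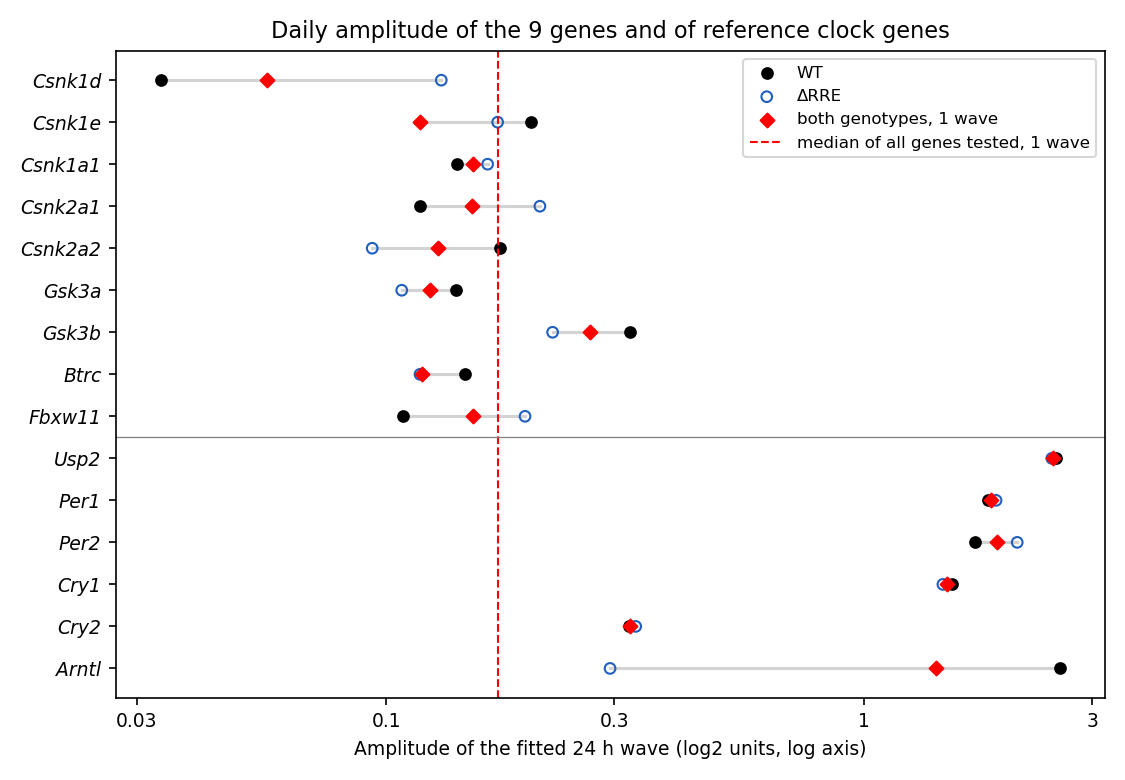
Amplitude of the fitted 24 h wave in log2 units on a log axis, in WT (filled points), in ΔRRE (open points) and in 1 fit to both (diamonds), for the 9 genes above the line and for reference genes below it. The joint amplitudes of 8 of the 9 genes lie below the median of all genes at 0.17 (dashed line) and that of Gsk3b, 0.27, above it, and those of Usp2, Per1, Per2, Cry1 and Arntl lie above 1.

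Of the remaining kinases, *Gsk3a*, which encodes the alpha form of glycogen synthase kinase 3, came closest to a call. Its WT means ran from 18.7 ± 0.272 FPKM at CT18 to 23.1 ± 1.48 FPKM at CT10, and its ΔRRE means from 19.5 ± 1.35 to 23.2 ± 0.982 FPKM at the same times (SD, n = 2 per mean). The joint amplitude was 0.12 ± 0.044 log2 units with a peak at CT9.37 (adjusted p = 0.0908 in limma's test). The value of 17.0 FPKM in ΔRRE CT6 replicate 2 was the lowest of all 24 and lay beside the highest, 26.2 FPKM, in replicate 1 of the same group. Without that replicate 2 the adjusted p of the wave was 0.0107 in limma's test.

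*Gsk3b* varied more between replicates than the other 8 genes. Its WT libraries measured 4.70 and 4.71 FPKM at CT2, 2.70 and 2.21 at CT6, 5.44 and 1.45 at CT10, 3.84 and 2.84 at CT14, 4.11 and 6.23 at CT18 and 2.24 and 4.07 at CT22. The ΔRRE libraries measured 5.22 and 4.60 FPKM at CT2, 1.66 and 4.64 at CT6, 3.85 and 4.70 at CT10, 2.14 and 4.48 at CT14, 4.46 and 4.73 at CT18 and 3.40 and 5.28 at CT22. Replicates lay close at CT2 and far apart at CT10 in WT and at CT6 in ΔRRE, and no order of the time points stood clear of the spread. The SD between replicates on the log2 scale was 0.59, against 0.12 to 0.32 for the other 8 genes. Across the 24 libraries, as a description, the Pearson correlation of *Gsk3b* with *Gsk3a* on the log2 scale was −0.34, the lowest of the 36 pairs of members, and that of *Csnk1a1* with *Csnk2a1* was 0.65, the highest.

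*Csnk1d* and *Csnk1e*, the kinases most firmly tied to the length of the daily cycle, had no wave that passed. *Csnk1d* lay between 15.2 and 21.3 FPKM in all libraries, the smallest ratio of highest to lowest value among the 9 genes, with a joint amplitude of 0.056 ± 0.038 log2 units (adjusted p = 0.483 in limma's test). *Csnk1e* lay between 1.56 and 4.55 FPKM, with a joint amplitude of 0.12 ± 0.098 (adjusted p = 0.606). *Csnk2a2* lay between 3.61 and 7.15 FPKM, with 0.13 ± 0.066 and a peak at CT8.74 (adjusted p = 0.286).

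Neither β-TrCP gene passed. *Fbxw11* had a joint amplitude of 0.15 ± 0.054 log2 units with a peak at CT2.81 (adjusted p = 0.0869 in limma's test), and its highest means were at CT2, 8.86 ± 1.59 FPKM for WT and 9.60 ± 0.846 FPKM for ΔRRE (SD, n = 2 each). Without WT CT18 replicate 2 its adjusted p was 0.0434. *Btrc* had a joint amplitude of 0.12 ± 0.072 log2 units (adjusted p = 0.400 in limma's test). At CT14 its libraries measured 2.40 and 3.43 FPKM in WT and 3.85 and 2.78 FPKM in ΔRRE. CT14 had the lowest mean of *Btrc* in both genotypes, and was picked out after the values were seen. The libraries of CT14 were not clear of the other times. In WT 3.43 lay above 3.23 FPKM at CT22, and in ΔRRE 3.85 lay above 3.81 FPKM at CT18. In the test of any difference between time points none of the 9 genes passed an adjusted p of 0.05 (26.6% of all genes did), and *Csnk1a1* (unadjusted p = 0.0265, adjusted p = 0.0807) and *Btrc* (unadjusted p = 0.0188, adjusted p = 0.0637 in limma's test) had an unadjusted p under 0.05, as 39.9% of all genes did.

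**Figure D3:**
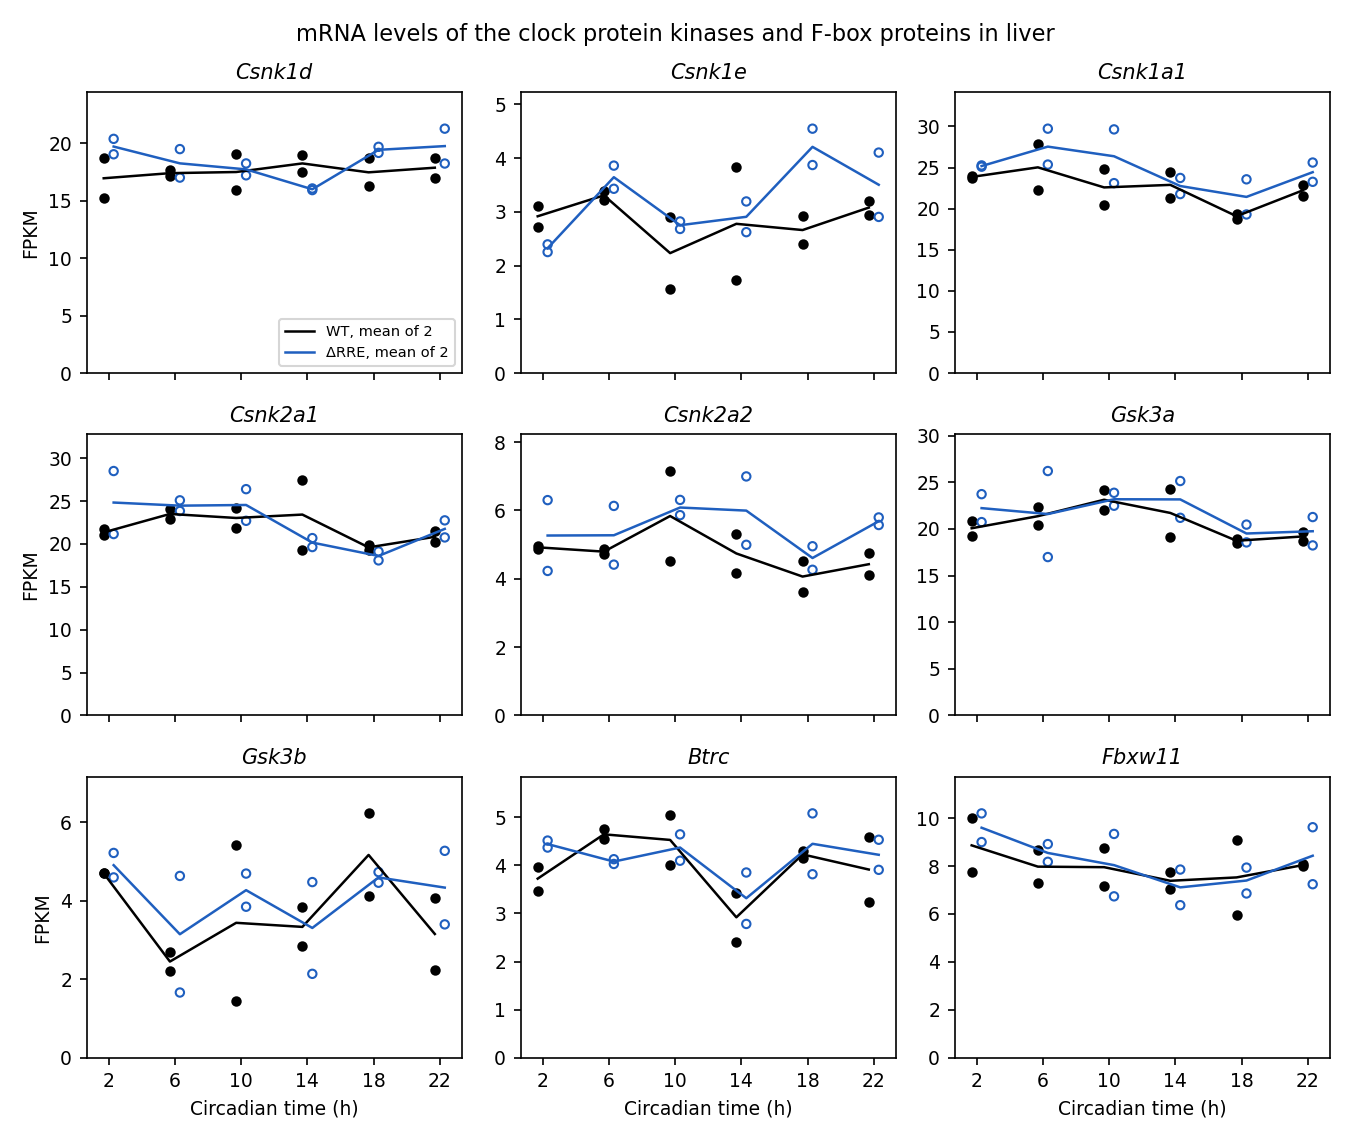
FPKM of the 9 genes against circadian time in hours, with filled black points for WT and open blue points for ΔRRE libraries and lines through the means of the 2 libraries of each group. The axes start at 0. Csnk1a1 and Csnk2a1 have their lowest means at CT18 in both genotypes, Btrc has its lowest at CT14, and the points of Gsk3b at CT10 in WT are 5.44 and 1.45 FPKM.

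The study's own criteria for a rhythmic gene ask for a rhythm p under 0.3, a peak mean of more than 1.5 times the trough mean, and no SD above 1.5 times the gap between peak and trough. Taking the rhythm p from the cosine fit, none of the 9 genes met them in WT (37.0% of all genes did) or in ΔRRE (35.4% of all genes). The limit on the ratio of means was passed by *Gsk3b* (2.11) and *Btrc* (1.59) in WT and by *Csnk1e* (1.81) and *Gsk3b* (1.56) in ΔRRE, and the rhythm p of these was between 0.359 and 0.520. The median ratio of these means over the 9 genes was 1.31 for WT and 1.33 for ΔRRE, against 1.49 and 1.495 over all genes.

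The question at the centre of the series is whether removing the RREs, which lowered the daily wave of *Bmal1* mRNA, changed other mRNAs. In these libraries the amplitude of *Arntl* was 2.57 log2 units in WT and 0.29 in ΔRRE. In ΔRRE *Arntl* still met the study's criteria as applied above (ratio of means 1.57, unadjusted p = 0.0240, adjusted p = 0.156 in limma's test). The study itself called *Bmal1* mRNA arrhythmic in the mutant, from quantitative RT-PCR and its own rhythm program BIO_CYCLE. The p of the cosine fit stands in for that program here, so the 2 calls rest on unlike measures. The level of each gene was compared over the 6 time points. All 9 genes had a positive estimate, ΔRRE over WT, as 65.5% of all genes did, and none passed an adjusted p of 0.05, as none of the 11244 genes did in limma's test. After rescaling the libraries by their median ratios (factors of 0.907 to 1.03 in WT and 0.989 to 1.08 in ΔRRE), 7 of 9 estimates were positive, as were 48.8% of all genes, and those of *Csnk2a1* and *Fbxw11* turned negative. The median difference was 0.07 log2 units over the 9 genes and 0.04 over all genes, and after rescaling 0.03 over the 9 genes and −0.0033 over all genes.

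The differences with the smallest p were those of *Csnk1a1* and *Csnk2a2*, the 2 of 9 genes with an unadjusted p under 0.05 (8.91% of all genes, and 7.16% of all genes with ΔRRE higher). *Csnk1a1* averaged 22.6 ± 2.54 FPKM in the WT and 24.6 ± 2.95 FPKM in the ΔRRE libraries (SD, n = 12 each), a log2 difference of 0.12 (95% interval 0.0017 to 0.24), with ΔRRE higher at 5 of 6 time points. With rescaled libraries it was 0.080 (−0.042 to 0.20). The exact permutation p was 0.0369 (two-sided, over 23328 ways to split the libraries within time points, smallest possible p 4.29e-05), and limma's p adjusted over all genes was 0.550. *Csnk2a2* averaged 4.80 ± 0.868 FPKM in the WT and 5.48 ± 0.906 FPKM in the ΔRRE libraries (SD, n = 12 each), with ΔRRE higher at 6 of 6 time points. Such counts were not particular to these genes. ΔRRE was also higher at 5 of 6 time points for *Csnk1d*, *Csnk1e*, *Gsk3a* and *Fbxw11*, and at 4 of 6 for *Csnk2a1*, *Gsk3b* and *Btrc*. These counts use values that were not rescaled, and their share over all genes was not counted.

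The *Csnk2a2* libraries of WT measured 4.96 and 4.88 FPKM at CT2, 4.73 and 4.86 at CT6, 7.15 and 4.52 at CT10, 4.18 and 5.31 at CT14, 3.61 and 4.52 at CT18 and 4.10 and 4.75 at CT22. Those of ΔRRE measured 6.30 and 4.23 FPKM at CT2, 6.13 and 4.41 at CT6, 6.31 and 5.86 at CT10, 6.99 and 4.99 at CT14, 4.95 and 4.26 at CT18 and 5.57 and 5.79 at CT22. Only at CT22 did both ΔRRE libraries lie above both WT libraries, as those of *Csnk1a1* did at CT2 and CT22. At the other 5 time points the genotypes overlapped for *Csnk2a2*. The share of all genes separated in this way was not counted. The log2 difference was 0.19 (95% interval 0.0028 to 0.38, exact permutation p = 0.0511, limma's adjusted p = 0.550), and with rescaled libraries 0.15 (−0.027 to 0.33).

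For the other 7 genes the 95% intervals included 0 and bound how large a change in level these libraries allow. *Csnk1d* differed by 0.07 log2 units (−0.047 to 0.19), an interval that reaches 1.14-fold, and *Csnk2a1* by 0.023 (−0.11 to 0.15). *Gsk3a* differed by 0.05 (−0.078 to 0.19), *Btrc* by 0.06 (−0.11 to 0.24) and *Fbxw11* by 0.04 (−0.13 to 0.20). The intervals of *Csnk1e*, 0.19 (−0.073 to 0.45), and *Gsk3b*, 0.18 (−0.23 to 0.58), were the widest. The exact permutation p of these 7 genes lay between 0.165 and 0.695.

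**Figure D4:**
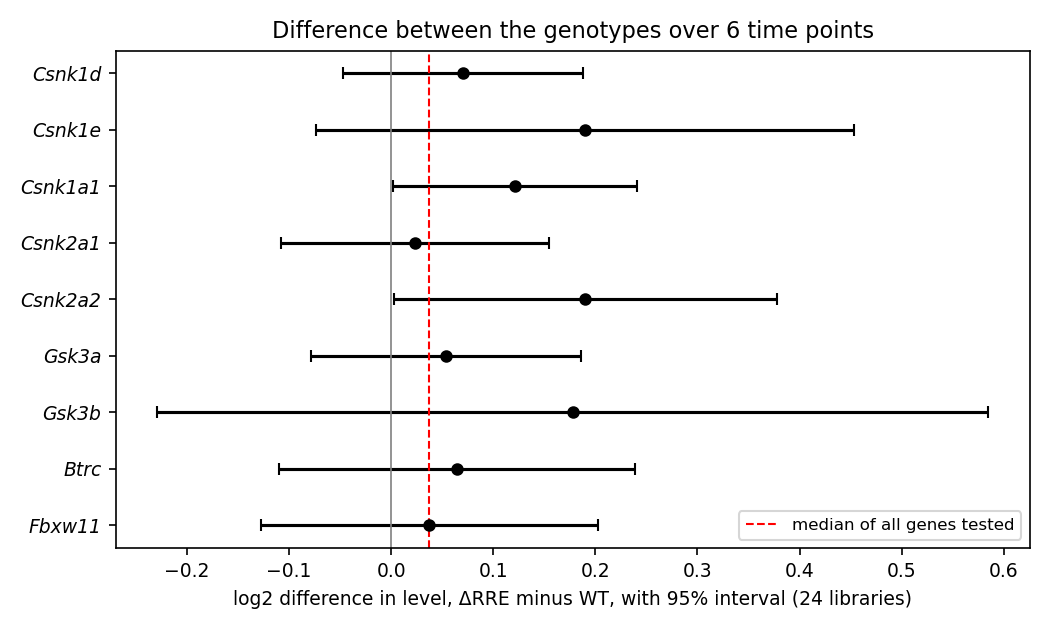
Difference in level on the log2 scale, ΔRRE minus WT over the 6 time points, for each of the 9 genes, with bars for the 95% interval from 24 libraries and a dashed line at the median of all genes, 0.04. All 9 points are above 0, and only the bars of Csnk1a1 and Csnk2a2 lie wholly above 0, from 0.0017 and from 0.0028. With rescaled libraries, not drawn, both of these intervals include 0, and the estimates of Csnk2a1 and Fbxw11 are below 0.

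At single time points no member passed an adjusted p of 0.05 or an unadjusted p of 0.05, where 0.00% to 0.0267% of all genes passed the adjusted threshold. An unadjusted p under 0.05 was found for 2.57% of all genes at CT2, 3.28% at CT6, 6.16% at CT10, 4.63% at CT14, 3.61% at CT18 and 4.66% at CT22. The smallest p was that of *Csnk1e* at CT18, where WT measured 2.40 and 2.93 FPKM and ΔRRE 3.87 and 4.55 FPKM (log2 difference 0.64 ± 0.31 (SE), unadjusted p = 0.0542 in limma's test). At CT2 the same gene lay the other way, with 2.73 and 3.11 FPKM in WT and 2.40 and 2.25 FPKM in ΔRRE. The groups did not overlap at either time point, which 2 against 2 libraries can do without a difference between the genotypes. The groups of other members did not overlap either, among them *Csnk1d* at CT2, CT14 and CT18, *Csnk1a1* at CT2 and CT22 and *Btrc* at CT6. The share of all genes whose groups did not overlap was not counted.

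The wave itself was also compared between the genotypes. None of the 9 genes passed an adjusted or an unadjusted p of 0.05 for a difference in rhythm, where 0.00889% of all genes (1 gene, *Arntl*) passed the adjusted and 2.84% the unadjusted threshold in limma's test. *Arntl*, the gene with the deleted RREs, lost 2.27 log2 units of amplitude (adjusted p = 0.0463 in limma's test), and no gene passed without 19 of the 24 libraries, each left out in turn. Among the 9 genes the amplitude differences, ΔRRE minus WT, lay between −0.10 (*Gsk3b*) and 0.097 (*Csnk1d*) log2 units, and the exact permutation p lay between 0.114 (*Csnk1d*) and 0.972 (*Csnk1a1*). *Csnk1d* had an amplitude of 0.034 in WT and 0.13 in ΔRRE, where its 2 lowest libraries were those of CT14, 16.1 and 15.9 FPKM, and the other 10 lay between 17.0 and 21.3 FPKM.

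Other enzymes that modify clock proteins were tested from a list of 36 genes, of which 35 passed the filter on low values and *Csnk1g1* did not. In the joint 24 h fit 9 of 35 passed (30.6% of all genes), 5 of 14 kinases, 1 of 12 ubiquitin ligase parts, 1 of 3 deubiquitinases and 2 of 6 phosphatases. The median joint amplitude of the 35 genes was 0.15 log2 units, against 0.17 over all genes. *Usp2*, a deubiquitinase that acts on PER1 and other clock proteins, had a joint amplitude of 2.49 ± 0.23 log2 units with a peak at CT14.1 (adjusted p = 1.39e-07 in limma's test). The phosphatase catalytic subunits *Ppp1ca*, which counteracts casein kinase 1 on PER, and *Ppp1cc* had 0.21 ± 0.033 with a peak at CT3.74 and 0.30 ± 0.077 with a peak at CT8.39. The kinase genes *Mapk3*, *Csnk1g2* and *Akt1* had amplitudes of 0.22, 0.17 and 0.22 log2 units, with peaks at CT7.07, CT9.45 and CT13.0 (adjusted p from 0.00671 to 0.00890 in limma's test). The regulatory subunit gene of casein kinase 2, *Csnk2b*, passed with 0.13 log2 units and a peak at CT11.2 (adjusted p = 0.0306 in limma's test), and is named here for its tie to *Csnk2a1* and *Csnk2a2* after its values were seen. *Skp1a*, *Cul1* and *Rbx1*, which encode the common parts of SCF ligases, did not pass (adjusted p = 0.603, 0.122 and 0.665 in limma's test). In WT alone *Usp2* and *Ppp1ca* passed, in ΔRRE alone *Usp2*, and none of the 35 differed between the genotypes in level or rhythm at an adjusted p of 0.05.

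The genes whose profiles were most like those of the members with a called wave were found by the Pearson correlation of log2 values over the 24 libraries. For *Csnk1a1* these were *Slc20a2* (0.81), *Ttpa* (0.79) and *Rnf149* (0.77), and for *Csnk2a1* *Ttc39b* (0.84), *March6* (0.84) and *Rbl2* (0.80). These points share libraries, genotypes and time points. Among the 36 pairs of members 26 correlations were positive, with a median of 0.16.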

How the data were processed

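RNA-seq of poly(A) RNA was performed by the authors on 24 liver libraries (2 per genotype and time point, 12 groups) with a directional kit and paired reads. The submitters' processing notes name Trimmomatic 0.39, HISAT2 2.1.0, StringTie 1.3.5 and the genome build mm10. The authors deposited the FPKM of each gene per library, without pooling replicates, and every value analysed comes from these tables. FPKM values carry no count, so no count model was fitted and no counting error is given. A series-wide table held the same values and was not used.

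The members, lists and tests were chosen with earlier results of these data known. Groups were taken from the labels. For the 11244 genes averaging 1 FPKM or more, log2(FPKM + 0.1) was computed and limma 3.58.1 (R 4.3.3, trend prior) was fitted with Benjamini-Hochberg adjustment over all genes: a cosine and a sine of 24 h in each genotype and jointly, time point as a factor, genotype with time point as a factor, the rhythm difference, and each time point. Exact permutation tests of single genes used 23328 ways to split the libraries within time points, and paired permutation tests 100000 resamples (NumPy 2.4.6, SciPy 1.17.1, Python 3.11.15, figures with matplotlib 3.10.9). BIO_CYCLE, the rhythm program of the study, was not run. Steps were tested on simulated data.

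Named genes were all 9 members, *Per1*, *Per2*, *Cry1*, *Cry2* and *Arntl* as reference, up to 6 other modifiers per test with the smallest adjusted p, and the 3 genes most like each member with a called joint wave. Genes named outside this rule are those given for context of the list (*Skp1a*, *Cul1*, *Rbx1*, *Csnk2b*), the marker genes and overlapping loci. The other genes of the list enter the counts only, and 1 of them is not reported by name here. Alternatives were other constants (1 or 0.01 FPKM), no filter on low values or one of 5 FPKM, libraries rescaled by the median of ratios, no trend in the prior, a period of 20 or 28 h, the replicate number as a term, and leaving out each library. Leaving out each time point was added after the data had been seen.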

Additional observations from a re-analysis of the deposited data

How the results depend on the processing

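The joint wave was called in 2 members. The count was 0 with rescaled libraries and without CT18, 1 with a period of 28 h (*Csnk1a1*), without CT6 (*Gsk3a*) and without CT10 (*Csnk1a1*), and 1 to 3 with 1 library left out. It was 1 without ΔRRE CT18 replicate 1 or 2, where *Csnk2a1* was lost, and 3 without WT CT18 replicate 2 (*Fbxw11* added) or ΔRRE CT6 replicate 2 (*Gsk3a* added). Differences between time points passed in 0 to 1 members with 1 library left out, *Csnk2a1* without WT CT14 replicate 2 and *Btrc* without WT CT22 replicate 1 or ΔRRE CT14 replicate 1. By the study's criteria 1 member (*Gsk3b*) was rhythmic in WT with rescaled libraries, and 0 to 1 in either genotype with 1 library left out. A lone library has no SD there. It was 1 in WT without CT10 replicate 1 (*Gsk3b*), CT10 replicate 2 (*Csnk2a2*), CT14 replicate 1 (*Csnk1e*), CT18 replicate 2 (*Csnk2a2*) or CT22 replicate 1 (*Gsk3b*). It was 1 in ΔRRE without CT2 replicate 2 (*Csnk2a1*), CT6 replicate 1 or 2 or CT14 replicate 2 (*Csnk1e*) or CT14 replicate 1 (*Fbxw11*). limma assumes that a lone library varies like the others.

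With rescaled libraries the level difference, ΔRRE minus WT, turned to −0.018 for *Csnk2a1* and −0.00342 for *Fbxw11*, and that of *Csnk2a1* ran from −0.012 (without ΔRRE CT2 replicate 1) to 0.066 with 1 library left out. It was 0.029 for *Csnk1d*, 0.15 for *Csnk1e*, 0.013 for *Gsk3a*, 0.14 for *Gsk3b* and 0.024 for *Btrc*. With 1 library left out it ran from 0.044 to 0.093 for *Csnk1d*, 0.13 to 0.26 for *Csnk1e* (without WT CT14 replicate 2 and 1), 0.022 to 0.095 for *Gsk3a* (without ΔRRE CT6 replicate 1 and 2), 0.046 to 0.26 for *Gsk3b* (without WT CT10 replicate 2 and 1), 0.028 to 0.090 for *Btrc* and 0.0043 to 0.075 for *Fbxw11* (without WT CT18 replicate 1 and 2). The amplitude difference of *Btrc* was 0.017 with a period of 28 h. With 1 library left out the amplitude differences changed sign within −0.12 to 0.016 for *Btrc*, −0.017 to 0.059 for *Csnk1a1*, −0.17 to 0.071 for *Csnk1e*, −0.059 to 0.038 for *Gsk3a* and −0.29 to 0.050 for *Gsk3b*. The genotype difference of the log2 ratio ran from −0.083 to 0.026 for *Fbxw11* to *Btrc* and from −0.046 to 0.31 for *Gsk3b* to *Gsk3a*. None of these had passed a test, and the cause was not tested. No member was called for level, rhythm difference or single time points under any alternative run, and the rank of the levels was unchanged in WT or ΔRRE libraries alone.

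Whether the replicate numbers pair the libraries was not settled. The correlation of same-numbered deviations between WT and ΔRRE lay between −0.12 and 0.21 over the 6 time points. It was over 0.1 at 2 of them, with 0.21 at CT2 and 0.20 at CT18. With the replicate block the joint wave was called in 2 members (*Csnk1a1* adjusted p = 0.0181 and *Csnk2a1* adjusted p = 0.0317 in limma's test), and the block changed no other call of a member.

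Over all genes, the calls in WT were 1157 and fell to 519 without a filter, those in ΔRRE were 514 and 197 without a filter, and those by the study's criteria were 4156 in WT and 3985 in ΔRRE, 9297 and 8776 without a filter and 2005 and 1997 with a mean of at least 5 FPKM. At single time points 7 genes passed, 74 without a filter and 3 with a mean of at least 5 FPKM, which leaves 6 of the 9 members. With 1 library left out, 741 to 1018 genes were called in WT, 299 to 554 in ΔRRE and 6 to 27 at single time points. The 1 gene with a rhythm difference was not tested with a mean of at least 5 FPKM, and no gene passed with 0.01 FPKM added, without a filter, without the trend in the prior, with the block, with a period of 28 h, or without any 1 of 19 libraries (all 12 of ΔRRE, both of WT CT2 and WT CT18, WT CT6 and CT10 replicate 1 and WT CT14 replicate 2).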
